A study of Mus musculus with 6 samples.

Results

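Mammalian cells carry a set of proteins that detect RNA and DNA in the cytosol, and 10 genes of this machinery were followed in macrophages sorted from healing skin wounds of young and aged mice. The genes were Ddx58 (RIG-I), Ifih1 (MDA5) and Dhx58 (LGP2), Mavs, Zbp1, Cgas, Sting1, Trex1, Tbk1 and Ikbke. They are listed by name for their place in the pathway. These genes and the gene lists used below were chosen with earlier results of these data known. Their shares beside those of all genes are therefore descriptions and not a test. All 10 were among the 15168 genes of the count table, and all 10 were among the 11878 genes that passed a filter on low counts and were tested. RNA-sequencing had been performed on F4/80+ CD64+ cells from full-thickness dorsal wounds of female C57BL6/J wild-type mice, taken 3 days after wounding, with a low-input SMART-Seq v4 kit. The young mice were 12 weeks of age (n = 3 samples) and the aged mice 24 months (n = 3 samples). Replicates were lettered A, B and C at each age. The labels do not say whether a sample came from a single animal, nor at which of the 2 sites named for housing the mice of a sample were kept.

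Total expected counts were 16263373, 15642483 and 15282178 in young A, B and C, and 15270103, 15998054 and 17927483 in aged A, B and C. Levels are given as CPM, the counts of a gene relative to the total of its library, after scaling of the libraries, on which scale a single count was worth between 0.0553 and 0.0701 CPM. Log2 fold changes are aged over young, from edgeR's quasi-likelihood test with its standard error (SE), and p-values were adjusted by the Benjamini-Hochberg method over all 11878 genes. A gene is called where its adjusted p was under 0.05. These p-values measure the spread between samples. In bulk samples, fewer cells of a type and less RNA per cell cannot be told apart.

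RIG-I, MDA5 and LGP2 are helicases that bind foreign or misplaced RNA in the cytosol, and RIG-I and MDA5 then signal through MAVS on mitochondria. Double-stranded DNA in the cytosol activates cGAS, whose cyclic dinucleotide product binds STING. Both routes meet at the kinases TBK1 and IKKe, which phosphorylate IRF3 and IRF7 and so switch on type I interferon, and interferon in turn induces many of the sensors. Wound macrophages take up dead cells and their nucleic acids while they clear the tissue.

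Of the 10 genes, 5 were called lower in aged wound macrophages (Zbp1, Ifih1, Dhx58, Ddx58 and Trex1), 0 were called higher and 5 were not called. Over all genes tested, 7.97% were called lower and 9.73% higher. All aged samples lay below all young samples for 6 of the 10 genes and above them for 1, against 19.0% and 19.2% of all genes tested. The median log2 fold change was -0.57 over the 10 genes and -0.02 over all genes tested. At an unadjusted p under 0.05, 5 of the 10 genes were lower and 1 was higher (Tbk1), against 16.5% and 18.1% of all genes tested, and DESeq2 and limma-voom each called 5 lower and 0 higher. With the replicate letter as a block, 4 were called lower and 0 higher. The count of calls depended on single samples: it was 0 without young B, 0 without young C, 3 without aged A, 3 without aged B and 1 without aged C, while the number of genes called lower among all tested went from 947 to 330, 67, 522, 608 and 194 respectively. In each of these fits all 5 genes stayed lower in aged samples. Requiring a change of more than 2-fold as well left 2 of the 5, Zbp1 and Ifih1. Scaling by library totals alone moved the median of all genes to -0.20 and the calls over all genes from 947 lower and 1156 higher to 1553 lower and 585 higher, and it gave the same counts of 5 and 0 for the 10 genes.

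**Figure D1:**
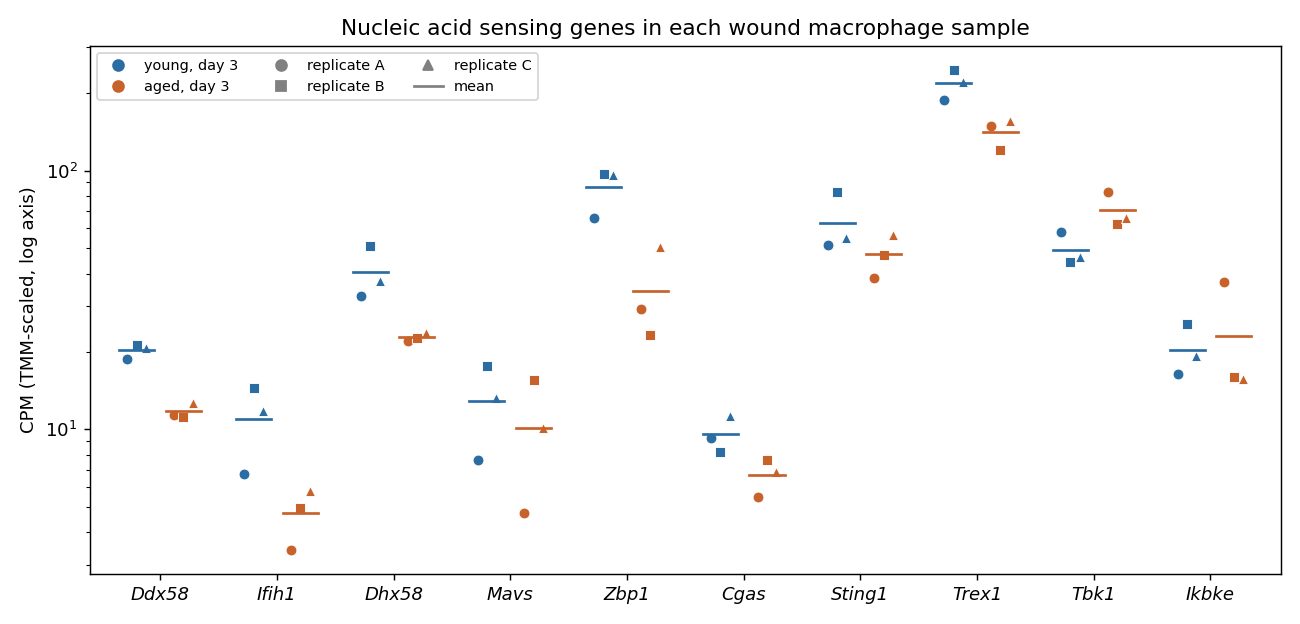
CPM of each of the 10 genes (log axis) in the 3 young and 3 aged Day 3 samples, with the symbol giving the replicate letter and the bar the mean of the group. Young and aged samples are apart for Ddx58, Ifih1, Dhx58, Zbp1, Cgas, Trex1 and Tbk1, and overlap for Mavs, Sting1 and Ikbke.

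**Figure D2:**
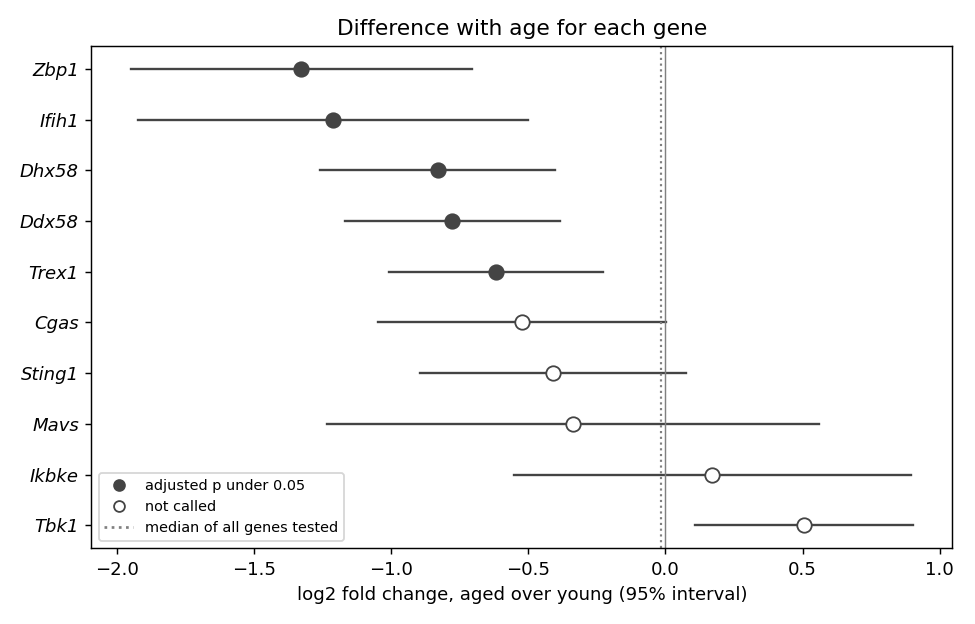
Log2 fold change of each gene, aged over young, with its 95% interval, filled where the adjusted p was under 0.05. The estimates run from -1.33 for Zbp1 to 0.51 for Tbk1, and the dotted line is the median of all genes tested at -0.02.

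All 3 RNA helicases of the RIG-I family were lower in aged wound macrophages. The DNA around the start of transcription is shown for Ddx58 and Ifih1, from the RefSeq table of the GRCm38.p6 build. Whether a shared control has a part in the lower levels was not tested. RefSeq entries matched 7 of the 10 genes by symbol. Each sequence ends within the first transcribed bases, is written 5' to 3' on the strand of the gene, and carries in capitals every match to the core of the interferon-stimulated response element, GAAANNGAA on either strand. Ddx58 lies on the minus strand at chr4:40239776-40240075 and holds 1 match, at bases 4 to 12 counted from the first transcribed base as base 1. Ifih1 lies on the minus strand at chr2:62646206-62646505 and holds 2, from -112 to -104 and from 33 to 41.
Ddx58: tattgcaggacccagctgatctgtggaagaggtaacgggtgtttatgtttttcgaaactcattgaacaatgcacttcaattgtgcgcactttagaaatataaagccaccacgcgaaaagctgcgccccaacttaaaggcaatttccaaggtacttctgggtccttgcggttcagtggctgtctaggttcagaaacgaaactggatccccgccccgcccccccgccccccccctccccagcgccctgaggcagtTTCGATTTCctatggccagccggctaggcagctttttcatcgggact
Ifih1: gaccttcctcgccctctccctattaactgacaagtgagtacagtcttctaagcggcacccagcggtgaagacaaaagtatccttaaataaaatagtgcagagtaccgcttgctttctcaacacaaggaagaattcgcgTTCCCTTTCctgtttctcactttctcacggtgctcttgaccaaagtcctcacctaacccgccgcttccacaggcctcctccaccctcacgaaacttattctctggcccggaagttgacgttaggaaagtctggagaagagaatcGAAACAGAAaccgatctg
This core was found in 8.56% of all 32851 promoters of the same length. No other of the 7 genes held it, and neither Ddx58 nor Ifih1 held the gamma-activated sequence TTCNNNGAA (8.30% of all promoters) or the kappaB core GGNNNTTCC (18.5%), both searched on both strands. The first core has GAA at both ends (TTC on the other strand), and the gamma-activated sequence has TTC at its start and GAA at its end. The same bases cannot match both in full, but overlapping matches can share an end. A match is a description of letters in this window and not a binding site.

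Ddx58, which encodes RIG-I and recognises RNA with a 5' triphosphate, stood at 18.7, 21.2 and 20.7 CPM in young A, B and C and at 11.4, 11.2 and 12.7 CPM in aged A, B and C. The samples of each age lay close together and the groups were well apart. Ddx58 had a log2 fold change of -0.78 (SE 0.18, edgeR adjusted p = 0.0190), a level 41.7% lower in aged samples. Ifih1, which encodes MDA5 and senses long double-stranded RNA, measured 6.75, 14.5 and 11.8 CPM in the young samples and 3.43, 4.97 and 5.81 CPM in the aged samples. Young A was the lowest of the young samples, near the highest aged sample, and no values overlapped. Its log2 fold change was -1.21 (SE 0.32, edgeR adjusted p = 0.0304). Dhx58, which encodes LGP2 and lacks the signalling domains of the other helicases, measured 32.7, 51.0 and 37.4 CPM in young samples and 21.9, 22.5 and 23.6 CPM in aged samples. The aged samples were nearly level and all lay under the young ones. Its log2 fold change was -0.83 (SE 0.19, edgeR adjusted p = 0.0204).

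The edgeR adjusted p rose past the threshold when certain samples were left out: for Ddx58 to 0.0590 without young B, 0.0899 without young C and 0.0612 without aged C, and for Dhx58 to 0.0645, 0.0762 and 0.0684 without the same samples. For Ifih1 it was 0.108 without young B, 0.113 without young C, 0.0736 without aged A, 0.0549 without aged B and 0.0639 without aged C. A small part of the exon bases of Dhx58, 4.31%, overlaps the antisense gene Dhx58os, and the methods do not say if read strand entered the counting.

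The genes most like the helicases over the samples were found by the correlation of log2 CPM with the mean standardised log2 CPM of Ddx58, Ifih1 and Dhx58. Among 6586 genes with a mean of at least 10 CPM, the highest Pearson r over the 6 samples belonged to Ptpn18 (0.997), Klhdc2 (0.997), Ddx18 (0.996), the predicted gene Gm12543 (0.995) and Pigx (0.992). The 6 samples fall into the 2 ages, so that any gene with a steady difference with age takes a high r, and the values describe likeness only. Ptpn18, a protein tyrosine phosphatase, had a log2 fold change of -0.94 (edgeR adjusted p = 0.0143) and Ddx18, a nuclear helicase of ribosome assembly, of -0.71 (edgeR adjusted p = 0.0326). Klhdc2 stood at -0.64 (edgeR adjusted p = 0.0470) and Gm12543 at -1.32 (edgeR adjusted p = 0.0110). Pigx, at -0.40, was not called (edgeR adjusted p = 0.0965).

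Among the genes that act with these receptors, ubiquitin ligases, adaptors and other regulators, 26 were tested, and 2 were called lower (7.69%) and 3 higher (11.5%), near the 7.97% and 9.73% of all genes tested, with a median log2 fold change of 0.32. All aged samples lay above all young ones for 12 of the 26 and below them for 1, against 19.2% and 19.0% of all genes tested, and at an unadjusted p under 0.05 there were 8 higher and 3 lower, against 18.1% and 16.5%. Of these 5 genes, 0 were called without young B, 0 without young C, 2 without aged A, 3 without aged B and 1 without aged C. Ddx60, a helicase that assists RIG-I, had a log2 fold change of -1.45 (edgeR adjusted p = 0.0433) and Trim14, a partner of MAVS, of -1.11 (edgeR adjusted p = 0.0366). The genes called higher were Mex3c, a ligase for RIG-I (0.95, edgeR adjusted p = 0.0335), Traf6, a ligase downstream of MAVS (0.86, edgeR adjusted p = 0.0149), and Tax1bp1, which restrains signalling together with A20 (0.58, edgeR adjusted p = 0.0495). Mex3c and Tax1bp1 lost their calls with library totals alone (adjusted p = 0.0683 and 0.133), Tax1bp1 also with no filter on low counts (0.0631), and Ddx60 in limma-voom (0.0527). Trim25, the ligase best known for RIG-I, averaged 159 ± 37.4 CPM in the young group and 247 ± 74.7 CPM in the aged group (mean ± SD, n = 3 each) and was not called (edgeR adjusted p = 0.108).

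Mavs, the mitochondrial adaptor of RIG-I and MDA5, measured 7.63, 17.7 and 13.2 CPM in young A, B and C and 4.76, 15.5 and 10.1 CPM in aged A, B and C. The groups overlapped, and at both ages replicate A was lowest and replicate B highest. Its log2 fold change of -0.34 (SE 0.41, edgeR adjusted p = 0.589) had a 95% interval from -1.24 to 0.56. It was -0.61 without young A, -0.03 without young B, -0.00054 without aged A and -0.77 without aged B. With the replicate letter as a block it was -0.41 (SE 0.21, edgeR adjusted p = 0.196).

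Zbp1, a sensor of left-handed nucleic acids that can trigger necroptosis through RIPK3 and MLKL, showed the lowest log2 fold change of the 10 genes. It measured 65.5, 97.0 and 96.3 CPM in young A, B and C and 29.1, 23.2 and 50.6 CPM in aged A, B and C. All aged samples lay under all young ones, with aged C the highest of its group. The log2 fold change was -1.33 (SE 0.28, edgeR adjusted p = 0.0151), a level 60.2% lower in aged samples. The adjusted p was 0.0559 without young B and 0.0774 without young C.

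The partners of Zbp1 in cell death moved in both directions. Of 7 tested, 1 was called lower (14.3%) and 3 higher (42.9%), against 7.97% and 9.73% of all genes tested, with a median log2 fold change of 0.43. Mlkl, the executioner of necroptosis, measured 13.4, 26.2 and 21.005 CPM in young samples and 10.4, 11.1 and 10.9 CPM in aged samples. Every aged sample was under every young one, and its log2 fold change was -0.90 (SE 0.25, edgeR adjusted p = 0.0332). Ripk3, the kinase that phosphorylates MLKL, measured 68.6, 54.3 and 56.6 CPM in young samples and 119, 78.7 and 93.9 CPM in aged samples. Here every aged sample was above every young one, with a log2 fold change of 0.70 (SE 0.19, edgeR adjusted p = 0.0327). Cflar, which encodes the caspase inhibitor c-FLIP (1.21, edgeR adjusted p = 0.00436), and Casp6, a caspase linked to ZBP1 (0.87, edgeR adjusted p = 0.0191), were higher as well. Mlkl, Ripk3 and Casp6 lost their calls when certain samples were left out, and Cflar did not. For Mlkl the adjusted p was 0.118, 0.122, 0.0724, 0.0635 and 0.102 without young B, young C, aged A, aged B and aged C, and for Ripk3 it was 0.106, 0.132, 0.0860 and 0.0907 without young B, young C, aged A and aged C. For Casp6 it was 0.0718 without young B, 0.0853 without young C and 0.0718 without aged C. Mlkl was also just past the threshold in limma-voom (adjusted p = 0.0501), and Ripk3 with library totals alone (0.0901).

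The DNA sensor and its adaptor were not called. The sequence around the start of Cgas, on the minus strand at chr9:78443188-78443487 of GRCm38.p6 from RefSeq, is shown for comparison with the helicases, with its single match to the kappaB core GGNNNTTCC, from -80 to -72, in capitals. It held neither the interferon response core nor the gamma-activated sequence.
Cgas: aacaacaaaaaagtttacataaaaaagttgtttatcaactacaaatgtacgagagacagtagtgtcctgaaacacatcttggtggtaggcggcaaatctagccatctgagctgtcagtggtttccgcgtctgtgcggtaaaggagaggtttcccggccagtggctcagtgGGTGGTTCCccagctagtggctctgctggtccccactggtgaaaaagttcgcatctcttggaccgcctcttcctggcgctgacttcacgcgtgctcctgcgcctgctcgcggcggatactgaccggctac
Cgas, the enzyme that makes cyclic GMP-AMP on binding DNA, measured 9.24, 8.21 and 11.3 CPM in young A, B and C and 5.46, 7.64 and 6.86 CPM in aged A, B and C. All aged samples were under all young ones by a narrow margin. The log2 fold change was -0.52 (SE 0.24, edgeR adjusted p = 0.147), with a 95% interval from -1.05 to 0.0028. Part of its exons, 4.87%, overlaps the antisense gene Gm8093, which had 4 to 13 counts in a sample.

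Sting1, the membrane receptor for cyclic GMP-AMP, measured 51.6, 82.6 and 54.7 CPM in young A, B and C and 38.6, 47.2 and 56.4 CPM in aged A, B and C. The groups overlapped, and young B stood above all other samples. The log2 fold change was -0.41 (SE 0.22, edgeR adjusted p = 0.213), with a 95% interval from -0.90 to 0.08, and without young B it was -0.16 (adjusted p = 0.647). Of 30 regulators, carriers and neighbouring DNA sensors listed for this route, 27 were tested, and 3 were called lower (11.1%) and 4 higher (14.8%), against 7.97% and 9.73% of all genes tested, with a median of -0.18. The fits without young B, young C, aged A, aged B and aged C called 4, 1, 5, 3 and 5 of these 7. Lower were Usp18, a protease that removes ISG15 and dampens interferon receptor signalling (-1.35, edgeR adjusted p = 0.0411), Mndal, of the interferon-induced p200 family (-1.25, edgeR adjusted p = 0.0277), and Slc19a1, a folate carrier that also imports cyclic dinucleotides (-1.12, edgeR adjusted p = 0.0331). Higher were Lrrc8c, a subunit of volume-regulated channels (1.29, edgeR adjusted p = 0.00483), Insig1, a sterol sensor (0.96, edgeR adjusted p = 0.00975), Surf4, a cargo receptor that returns STING to the endoplasmic reticulum (0.89, edgeR adjusted p = 0.00786), and Zdhhc7, a palmitoyl transferase (0.79, edgeR adjusted p = 0.0259).

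Trex1, the main exonuclease that degrades DNA in the cytosol, measured 187, 245 and 219 CPM in young A, B and C and 149, 120 and 155 CPM in aged A, B and C. The aged samples all lay under the young ones. The log2 fold change was -0.62 (SE 0.18, edgeR adjusted p = 0.0374), a level 34.9% lower in aged samples. All 1147 exon bases of Trex1 lie within exons of Atrip on the same strand, so its value is uncertain: reads of the shared part could have been divided between them, and the expected count of Trex1 was not whole in any of the 6 samples. Atrip was given 37 to 112 counts in a sample, with a log2 fold change of -0.45 (SE 0.35, edgeR adjusted p = 0.387), against 1881 to 4171 counts for Trex1. The call of Trex1 held without young A and was lost without each other sample, with adjusted p-values of 0.124 without young B, 0.128 without young C, 0.0629 without aged A, 0.117 without aged B and 0.0929 without aged C. With the replicate letter as a block, the edgeR adjusted p of Trex1 was 0.0535. RefSeq gave a pair of start sites for Trex1, and none of the 3 motifs was found at either.

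Of 15 other nucleases and enzymes that clear or edit nucleic acids, 14 were tested, and 3 were called lower (21.4%, against 7.97% of all genes tested) and 0 higher (against 9.73%) by edgeR, with a median of -0.25. With library totals alone 5 were called lower, while the share of all genes tested called lower was then 13.1%. At an unadjusted p under 0.05 there were 4 lower and 0 higher, against 16.5% and 18.1% of all genes tested, and DESeq2 and limma-voom each called 0 higher. Pnpt1, the mitochondrial RNA-degrading enzyme (-0.86, edgeR adjusted p = 0.0306), Rnaseh2a, the catalytic subunit of RNase H2 (-0.74, edgeR adjusted p = 0.0218), and Dnase2a, the lysosomal DNase (-0.57, edgeR adjusted p = 0.0391), were lower. The call of Dnase2a was lost whichever sample was left out (adjusted p from 0.0508 without aged A to 0.160 without aged C) and with no filter on low counts (0.0511). Of the 3 calls, 2 held without young A, 1 without aged A, 1 without aged B and 0 without each other sample. Adar, which edits double-stranded RNA and keeps MDA5 quiet, averaged 19.0 ± 4.33 CPM in the young group and 19.8 ± 4.13 CPM in the aged group (mean ± SD, n = 3 each), a log2 fold change of 0.05 with a 95% interval from -0.46 to 0.57 (edgeR adjusted p = 0.895), and with library totals alone the value was -0.14.

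Tbk1, the kinase shared by the RNA and DNA routes, was the gene with the highest log2 fold change of the 10. It measured 57.7, 44.2 and 46.2 CPM in young A, B and C and 82.9, 62.1 and 65.5 CPM in aged A, B and C. Every aged sample was above every young one, and replicate A was highest at both ages. Its log2 fold change was 0.51 (SE 0.18, edgeR adjusted p = 0.0749), with a 95% interval from 0.11 to 0.90, and it was not called. Without young A its adjusted p was 0.0359, and leaving out any other sample gave 0.0775 to 0.230. With library totals alone its log2 fold change was 0.32 (adjusted p = 0.250). With the replicate letter as a block it was 0.51 (SE 0.15, edgeR adjusted p = 0.0507). Ikbke, which encodes the related kinase IKKe, measured 16.4, 25.5 and 19.2 CPM in young samples and 37.1, 16.0 and 15.7 CPM in aged samples. The groups overlapped, and aged A alone stood high. Its log2 fold change of 0.17 (SE 0.33, edgeR adjusted p = 0.744, 95% interval -0.55 to 0.89) became -0.36 without aged A, 0.04 without young A, 0.38 without young B, 0.39 without aged B or aged C, and -0.01 with library totals alone.

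Of 14 scaffolds and targets of the kinases tested, 10 were not called, 1 was called lower (7.14%) and 3 higher (21.4%), against 7.97% and 9.73% of all genes tested, with a median of 0.29. Without young B, 2 of these 4 were called, without young C 1, and without each aged sample 3. Irf7, the interferon regulatory factor that amplifies type I interferon, measured 235, 375 and 395 CPM in young A, B and C and 94.0, 67.0 and 176 CPM in aged A, B and C. All aged samples were under all young ones, and aged C was highest among them and nearest to young A, as for Zbp1. The log2 fold change was -1.58 (SE 0.33, edgeR adjusted p = 0.0152), with adjusted p-values of 0.0549 without young B and 0.0774 without young C. Irf3, the factor present before any signal, averaged 24.0 ± 6.23 CPM in the young group and 27.1 ± 5.47 CPM in the aged group (mean ± SD, n = 3 each), a log2 fold change of 0.18 with a 95% interval from -0.34 to 0.69 (edgeR adjusted p = 0.620). Nfkb1 (1.41, edgeR adjusted p = 0.00242) and Rela (0.94, edgeR adjusted p = 0.00828), subunits of NF-kappaB, and Optn, a ubiquitin-binding partner of TBK1 (1.02, edgeR adjusted p = 0.0437), were higher, and Optn lost its call with library totals alone (adjusted p = 0.0949).

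Ifnb1, which encodes interferon beta, was scarcely detected: it had 10, 1 and 4 counts in young A, B and C and 0, 3 and 4 counts in aged A, B and C, too few for the test. In the receptor pathway 9 genes were tested, and 3 were called lower (33.3%) and 2 higher (22.2%), against 7.97% and 9.73% of all genes tested, with a median of 0.11. Of these 5, 1 was called without young B, 0 without young C, 3 without aged A, 3 without aged B and 2 without aged C. Stat2, a transcription factor activated by interferon receptors, measured 11.3, 16.7 and 15.5 CPM in young samples and 8.55, 8.02 and 9.57 CPM in aged samples, with a log2 fold change of -0.73 (SE 0.22, edgeR adjusted p = 0.0437). The call of Stat2 held without young A, and the adjusted p lay at 0.136, 0.154, 0.0853, 0.109 and 0.102 without young B, young C, aged A, aged B and aged C, at 0.0519 with no filter on low counts and at 0.0532 in limma-voom. With the replicate letter as a block, the edgeR adjusted p of Stat2 was 0.0513. Irf9, which binds DNA with it, was not called, at 83.9 ± 8.68 CPM in the young group and 72.2 ± 15.3 CPM in the aged group (mean ± SD, n = 3 each; edgeR adjusted p = 0.438, 95% interval of the log2 fold change -0.63 to 0.19). Socs1, an inhibitor of this pathway (1.65, edgeR adjusted p = 0.0172), and the receptor chain Ifnar1 (0.64, edgeR adjusted p = 0.0267, and 0.0744 with library totals alone) were higher, and Usp18, named above, was also among the genes called lower. The log2 fold change of Socs1 was 2.255 without young A. Its adjusted p was 0.0585 without young B, 0.0912 without young C and 0.0541 without aged C.

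**Figure D3:**
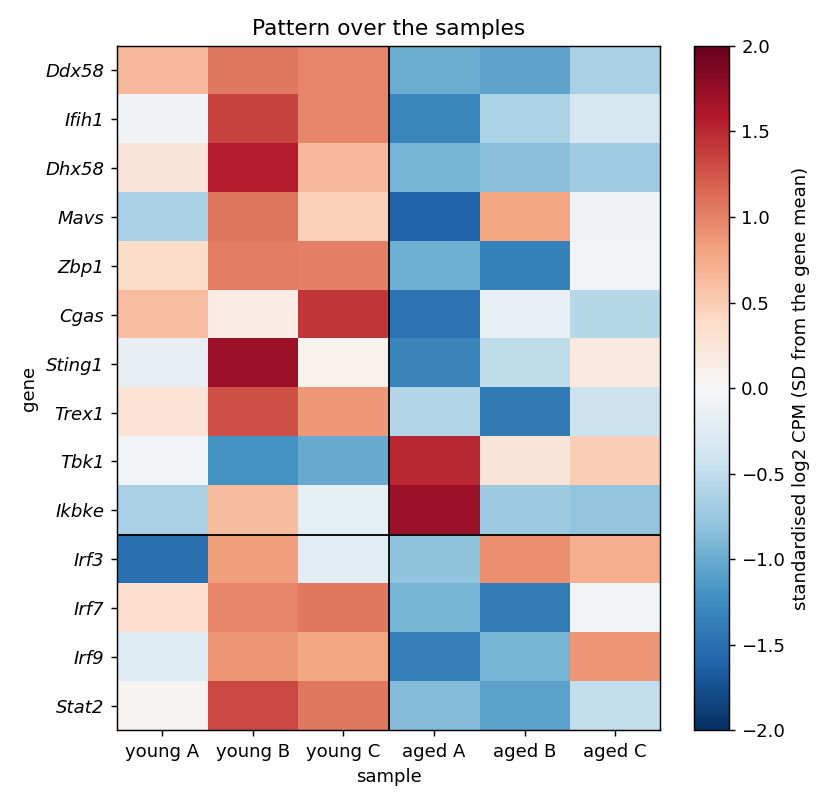
Standardised log2 CPM (SD from the mean of each gene over the 6 samples) of the 10 sensing genes and, under the line, of 4 transcription factors of the interferon response, by sample. Zbp1, Irf7 and Stat2 are lower in all aged samples than in all young ones, and Tbk1 is higher in all aged samples.

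Interferon-induced effectors were the list with the largest share called lower. They are called RNA binding effectors here for short, though the list also holds members such as the GTPase Mx2. Of 25 tested, 13 were called lower (52.0%, against 7.97% of all genes tested) and 0 higher by edgeR, with a median log2 fold change of -0.997 against -0.02 over all genes tested. At an unadjusted p under 0.05, 20 were lower and 1 was higher, against 16.5% and 18.1% of all genes tested, and DESeq2 and limma-voom called 14 and 13 lower and 0 higher each. Mx2, a dynamin-like GTPase, measured 3.15, 8.15 and 7.66 CPM in young A, B and C. It measured 0.420, 1.66 and 1.54 CPM in aged A, B and C. All aged samples lay under all young ones, and the log2 fold change was -2.37 (SE 0.51, edgeR adjusted p = 0.0159). Ifit3, of the family that binds foreign RNA ends, measured 51.8, 96.4 and 76.4 CPM in young samples and 6.94, 12.6 and 24.2 CPM in aged samples, a log2 fold change of -2.36 (SE 0.39, edgeR adjusted p = 0.00709). Its near copy Ifit3b followed at -2.05 (SE 0.52, edgeR adjusted p = 0.0271), and the division of reads between this pair is uncertain. The value of Ifit3b was -2.81 without aged C, and its adjusted p was 0.0940 without young B, 0.108 without young C and 0.0575 without aged B. Without young B the count called lower was 4, without young C 2, without aged A 7 and without aged B 5, while the fit lacking aged C gave 13.

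The interferon response core was found in the promoters of 11 of the 18 genes of this list that RefSeq matched (61.1%), among them Ifit3, Isg15, Oas1a and Rsad2. Counted by gene, 9.76% of 27025 genes held it. In the other lists it was found in 2 to 5 genes each, including Adar, or 16.7% to 42.9% of the genes matched. Promoters on chromosome 18 were left out of these counts by list. The 42.9% was of the ZBP1 partners, through Cflar, Ripk1 and Ripk3. Among the called genes of these other lists, Stat2, Ddx60 and Mndal, called lower, and Cflar, Ripk3 and Socs1, called higher, held it. Called genes with and without it were present, as Trex1 and Ddx58 show among the sensors.

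Over the 7 lists together, each gene taken once, 118 of 123 genes were tested, and 24 were called lower (20.3%) and 15 higher (12.7%), against 7.97% and 9.73% of all genes tested. With library totals alone the counts were 34 and 9, while 13.1% and 4.9% of all genes tested were then called lower and higher. The lists share Usp18, Ripk1, Zc3hav1 and Ddx60. Of the 39 genes called, 12 were also called without young B, 5 without young C, 22 without aged A, 21 without aged B and 22 without aged C, and in each of these fits all 39 kept their direction. The separate totals without the same samples were 7, 2, 12, 9 and 17 lower and 7, 3, 12, 13 and 6 higher.

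**Figure D4:**
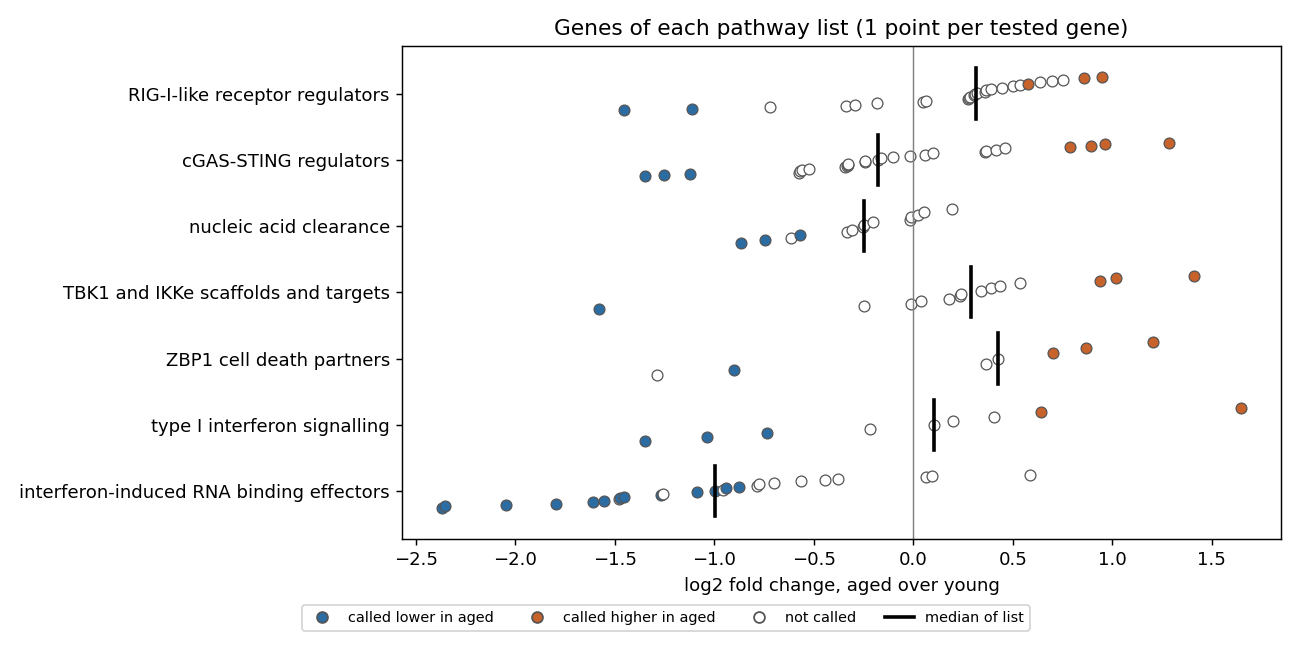
Log2 fold change, aged over young, of each tested gene in 7 pathway lists, with filled points for genes called and a bar at the median of the list. The RNA binding effectors have a median of -0.997, and the other medians lie between -0.25 and 0.43.

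Levels of the 10 genes can be compared with each other only per length, here as mean CPM per kilobase of exon. The exons of all annotated transcripts of a gene were merged, so a gene whose expressed transcripts are shorter could rank too low. The value of Trex1 is uncertain, since its exons lie within those of Atrip. In young samples Trex1 was highest at 189 ± 25.2, followed by Zbp1 at 24.4 ± 5.09 and Sting1 at 23.0 ± 6.23, then Tbk1 at 12.6 ± 1.87 and Dhx58 at 12.3 ± 2.91 (mean ± SD, n = 3). Mavs (3.84 ± 1.502), Ddx58 (2.86 ± 0.19), Cgas (2.32 ± 0.38) and Ikbke (2.26 ± 0.51) came next, with Ifih1 lowest at 1.35 ± 0.48. Neighbours in this order overlapped between samples except Trex1 with Zbp1, Sting1 with Tbk1, Dhx58 with Mavs and Ikbke with Ifih1. In aged samples Trex1 (123 ± 16.5) and Ifih1 (0.58 ± 0.15) kept the ends of the order. Tbk1 stood at 17.9 ± 2.86 and Sting1 at 17.3 ± 3.25 CPM per kilobase, both above the mean of Zbp1 at 9.72 ± 4.08. Dhx58 (6.93 ± 0.26), Mavs (3.03 ± 1.60), Ikbke (2.54 ± 1.36), Ddx58 (1.67 ± 0.11) and Cgas (1.61 ± 0.27) followed. Aged neighbours overlapped between samples except Trex1 with Tbk1, Dhx58 with Mavs and Cgas with Ifih1.

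The cell type markers give the setting of these values, and their calls stand against the 7.97% lower and 9.73% higher of all genes tested. All 4 markers of the sort were present, with Itgam, the integrin chain CD11b, higher in aged samples (log2 fold change 0.99, edgeR adjusted p = 0.00735) and Adgre1, which encodes F4/80, lower (-0.69, edgeR adjusted p = 0.0292). Of 9 macrophage markers, led by Lyz2, 3 were lower (C1qa, C1qb and C1qc) and 2 higher, among them Cd14. Of 7 monocyte markers, led by Chil3, 1 was higher (Hp), and their summed CPM was 1840.0, 3048 and 3633 in young A, B and C and 5204, 4133 and 3875 in aged A, B and C. Of 12 neutrophil markers tested, led by S100a9, 4 were higher (Cd177, Cxcr2, Lcn2 and Retnlg) and 8 were not called, among them Ly6g (log2 fold change 0.05) and Mmp9 (-0.54), and their summed CPM was 717, 1217 and 1169.5 in young samples and 1583, 926 and 1559 in aged samples. Camp and Mpo were not in the count table, and Elane was at 0 in the young samples. The sort had no step to exclude neutrophils, and the paper says that a few may be among the sorted cells.

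Plasmacytoid dendritic cells, a known source of type I interferon, left little trace: Siglech had 8, 6 and 0 counts in young A, B and C and 0, 22 and 1 counts in aged A, B and C, Klk1 and Pacsin1 were not in the count table, and the summed CPM of the list, mostly of Lair1, was 63.0, 132 and 101 in young samples and 52.5, 41.7 and 58.5 in aged samples. Of 3 genes tested from this list, Lair1 was called lower (log2 fold change -1.06, edgeR adjusted p = 0.0271), and Il3ra (-0.31) and Ccr9 (1.56) were not called. Keratinocyte markers, led by Krt14, summed to 163 CPM in aged B and to between 0.719 and 2.10 CPM in the other samples. Fibroblast markers, led by Col3a1, summed to 120 CPM in aged B and to between 13.2 and 41.1 CPM elsewhere. Without aged B, Ddx58, Dhx58 and Zbp1 were called lower, and Ifih1 (edgeR adjusted p = 0.0549) and Trex1 (0.117) were not. The log2 fold change of Ifih1 was then -1.24, against -1.21 with all samples, and that of Trex1 was -0.50, against -0.62. The part of these differences between samples in the changes of the sensing genes was not tested.

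**Figure D5:**
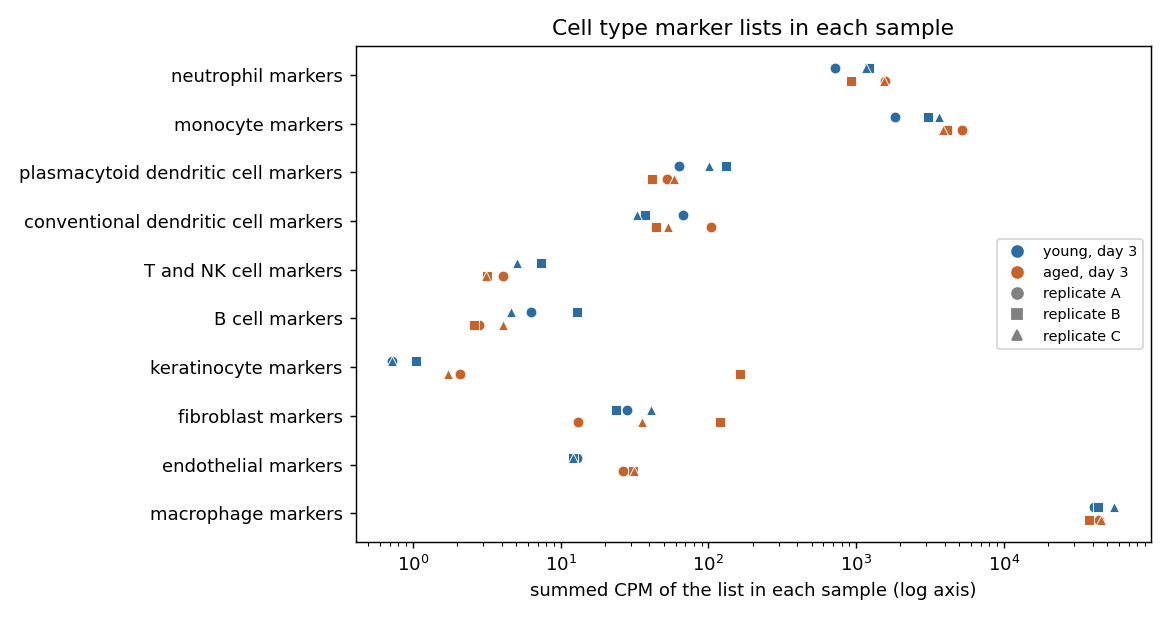
Summed CPM of each marker list (log axis) in the 3 young and 3 aged samples, with the symbol giving the replicate letter. Aged B stands apart for keratinocyte markers at 163 CPM and fibroblast markers at 120 CPM.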

How the data were processed

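RNA-sequencing of sorted wound macrophages, 3 young and 3 aged samples, was used. Per the labels and the methods, the authors aligned reads with STAR 2.7.3a to mm10 and took their numbers per gene from Ensembl transcripts 102 within Partek Flow, and they deposited expected counts per gene, not normalised. A second deposited table with normalised values and the authors' own comparison was not used. Expected counts, of which 30.3% to 33.9% per sample were not whole, were rounded and tested in R 4.3.3 with edgeR 4.0.16: TMM scaling, filterByExpr by age, a quasi-likelihood test with age as the single term, and Benjamini-Hochberg adjustment, with calls at an adjusted p under 0.05. DESeq2 1.42.0, limma-voom (limma 3.58.1), other scalings, other filters, a block for the replicate letter and fits lacking each sample were alternatives. The methods were tested on simulated data. Totals ran from 15270103 to 17927483 counts, and counting error falls on top of the spread between samples.

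The 10 members, the pathway lists and the marker lists were chosen with earlier results of these data known. Named in the text are all 10 members, up to 3 called genes in each direction from each list with the largest absolute log2 fold change, the factors Irf3, Irf7, Irf9, Stat2, Ifnb1, Ripk3, Mlkl and Adar, the 5 genes most like the helicases and, of each marker list, its most abundant gene and genes at 0, apart from genes that are not reported here. Other genes, such as Trim25, Zdhhc7, Atrip, Ly6g, Mmp9, Kdr and Vwf, were named after their values were seen. Exon lengths and overlaps came from GENCODE M21, in which Sting1 is listed as Tmem173, and promoters from RefSeq. Tables and plots used pandas 2.3.3 and matplotlib 3.10.9 under Python 3.11.15.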

Additional observations from a re-analysis of the deposited data

How the results depend on the processing

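With 3 samples at each age, the calls depended on single samples. Leaving out each sample in turn gave 0 to 5 members called lower and 0 to 1 called higher, and over the pathway lists 2 to 28 genes called lower and 3 to 17 higher, with 2 to 16 RNA binding effectors lower. Fewer samples enter such a fit, and all genes together had 67 to 1128 called lower and 151 to 1574 higher. Requiring more than 2-fold as well left 2 members lower. Over the lists it left 16 genes lower in place of 24 and 5 higher in place of 15, with 10 RNA binding effectors lower in place of 13. Library totals alone gave 34 list genes lower and 9 higher in place of 24 and 15. Over all genes tested, 13.1% were then called lower and 4.9% higher. DESeq2 size factors, other filters, DESeq2 and limma-voom kept 5 members lower and 0 higher. Of 545 log2 fold changes of 42 genes under the alternatives, 422 kept direction and side of the threshold, 116 lost the call, 1 gained it and 6 changed sign. These were of genes not called: Ikbke, at -0.011 with library totals and -0.36 to 0.39 over the samples left out, and Adar, at -0.14 with library totals and -0.12 to 0.22 over the samples left out. For Adar the value was -0.12 without young C, and -0.03 without aged B or aged C. The cause was not tested. With the set letter as a replicate block, 4 members were called lower and 0 higher, since Trex1 had an adjusted p of 0.0535, and the lists gave 26 lower and 15 higher, with Stat2 at 0.0513. Deviations from the group means correlated between same-lettered samples at 0.18 for A, -0.02 for B and 0.11 for C. The labels do not say what the set letter stands for, and the letter was left out of the main fit. Ifnb1, at 0 to 10 counts per sample, did not pass the filter on low counts.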

Other observations

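Summed CPM is given here for the markers of further cell types, and the RNA that such cells added was not estimated. Conventional dendritic cell markers, led by Ccr7, summed to 66.9, 37.4 and 33.1 CPM in young A, B and C and to 105, 44.3 and 53.4 CPM in aged A, B and C, and Clec9a was not in the count table. T and NK cell markers, led by Cd4, summed to between 5.09 and 7.41 CPM in the young group and between 3.15 and 4.06 CPM in the aged group, with Gzma at 0 in all aged samples. Of 3 tested, Cd4 was called lower (log2 fold change -1.76, edgeR adjusted p = 0.0386), and Nkg7 (-1.80) and Trac (0.91) were not called. Cd3e, too low for the test, averaged 0.23 CPM in the young group and 0.78 CPM in the aged group. B cell markers, mostly Cd79b, summed to between 4.62 and 12.9 CPM in the young group and between 2.61 and 4.08 CPM in the aged group, and Pax5 was not in the count table. Cd79b, the 1 gene of this list tested, was called lower (log2 fold change -1.58, edgeR adjusted p = 0.0308). Among endothelial markers, Pecam1, an adhesion molecule that leukocytes carry as well, was the most abundant. It was the 1 called of 3 tested genes and had a log2 fold change of 1.69 (SE 0.21, edgeR adjusted p = 0.00220), at 8.03 ± 1.82 CPM in the young group and 25.9 ± 2.08 CPM in the aged group (mean ± SD, n = 3 each). Kdr (-0.40) and Vwf (-0.38) were not called, and the median log2 fold change of the 3 was -0.38.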
